A study of Mus musculus with 38 samples.

Results

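Small intestinal organoids taken as double knockouts of Ppard and Ppara were compared with Ppara knockout organoids. All were grown with the PPARδ agonist GW501516. The comparison took in 10 of the 38 samples of the series, 5 of the double knockout (DA) and 5 of the Ppara knockout (A), chosen by the treatment and genotype in the column names of the count table, and it was read across all genes. Columns with KD in their name were left out.

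PPARα and PPARδ are nuclear receptors that sense fatty acids. With their partner RXR they bind short repeated DNA elements and activate genes of fatty acid uptake, mitochondrial and peroxisomal oxidation, and lipid droplet and lipoprotein handling. In the small intestine both are known for regulating how stem cells and enterocytes burn fat, and they share many target genes.

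Crypts of C57BL6 mice were cultured in 65% matrigel with 1 uM GW501516 in 0.1% DMSO, or with 0.1% DMSO as the vehicle, for 8 days and 2 passages. The DA genotype was given as floxed Ppard on a Ppara-null background and the A genotype as Ppara-null, so that both groups carried the Ppara-null allele. The labels did not say what deleted the floxed Ppard, in which cells, or how many animals or cultures the libraries came from. The same genotype comparison under vehicle had 4 DA and 5 A libraries, and GW501516-treated Ppard-floxed (D, 3 libraries) and wild-type (WT, 5 libraries) organoids gave the step without a Ppara deletion. RNA was counted by 3′ digital gene expression, which reads a tag near the 3′ end of each polyadenylated transcript, and levels are given as CPM, a gene's count scaled to the library total.

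Total counts ran from 395033 to 512122 in DA libraries and from 396214 to 514691 in A libraries, and mitochondrially encoded transcripts made up 8.08 to 9.71% of them in DA and 7.55 to 9.77% in A. Each group had 3 libraries numbered up to 36 and 2 numbered 37 or above, and in each group Xist exceeded the Y-linked transcripts in 2 of 5 libraries. Those were replicates 2 and 3 of each group, all numbered up to 36. Replicate 1 of each group and all libraries numbered 37 or above had Y-linked transcripts above Xist. Library number and sex-linked transcripts thus largely went together. Summed epithelial markers came to 1787 to 2465 CPM in DA and 1453 to 1861 CPM in A, whereas 9 of 12 tuft cell, 10 of 14 stromal (Col1a1 and Col3a1 among them) and 12 of 16 immune cell markers (Ptprc and Cd3e among them) had no count in any of the 10 libraries. Of 19 stem cell markers 10 were tested, with 7 higher and 3 lower estimates, a median log2 fold change of 0.15 and none at an unadjusted p under 0.05. Olfm4, one of them, was at 47.9 ± 13.9 CPM in DA and 43.3 ± 5.65 CPM in A (SD, n = 5 each), while Lgr5 had 9 counts over the DA group and 11 over the A group and was too thin to test.

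Ppard itself could not serve to check its own deletion. Ppard had 2, 1, 1, 1 and 2 counts in the DA libraries, and 0, 0, 0, 4 and 0 counts in the A libraries. The gene was therefore not lower in DA at these counts, and a 3′ tag outside a deleted exon does not report a deletion. Ppara had 9 counts over the DA group and 8 over the A group, or 3.80 ± 1.67 CPM in DA and 3.30 ± 2.29 CPM in A. With GW501516, WT libraries had 11, 5, 2, 9 and 11 Ppara counts, and D libraries had 13, 6 and 1. Ppara was thus higher in most of these libraries than in the Ppara-null ones, though WT replicate 3 and D replicate 3 overlapped them. Pparg, the third family member, was at 28.1 ± 9.11 CPM in DA and 24.9 ± 8.54 CPM in A, with a log2 fold change of 0.15 ± 0.28 (SE) and a 95% interval of -0.42 to 0.72.

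Under agonist, DA organoids had less of a few transcripts than A organoids, among them the lipid genes Fabp1, Abhd6, Eci2 and Crot, and no gene was higher past the threshold. Of 4902 genes tested, 6 were lower in DA at an adjusted p under 0.05 (quasi-likelihood test of edgeR, Benjamini-Hochberg adjustment), which is 0.122% of the genes tested, and 0 were higher. At an unadjusted p under 0.05 there were 116 lower (2.37%) and 98 higher (2%) genes. DESeq2 called 1 gene higher and limma-trend 0. The median log2 fold change of all genes was 0.00, with 2485 genes above 0 and 2416 below it. With 1 DA library left out (replicate 1, 3, 4 or 5), or without A replicate 3, 1 gene remained past the threshold, and the loss of any single library left between 1 and 7 lower genes. Within libraries numbered up to 36, 1 lower and 0 higher genes passed, and within those numbered 37 or above 19 lower and 16 higher genes passed. Without a filter on low counts there were 20 lower and 3 higher genes.

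**Figure D1:**
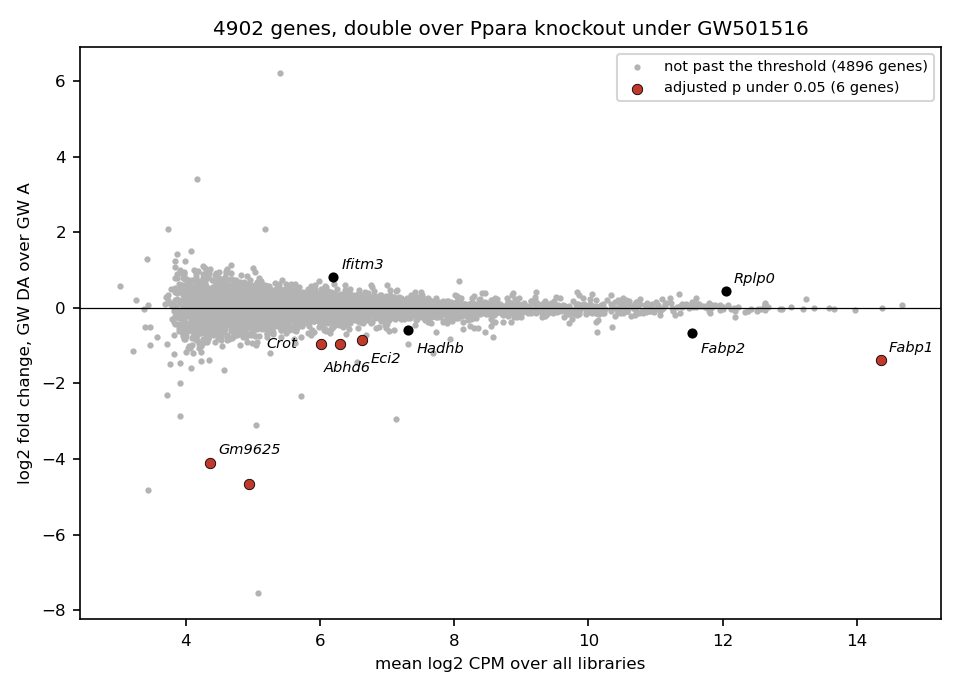
Log2 fold change, DA over A under GW501516 (vertical axis), against mean log2 CPM over all libraries (horizontal axis), with 1 point for each of the 4902 genes tested. The 6 red points passed the threshold and all lie below 0, and 5 of them are labelled together with 4 genes in black that did not pass.

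Fabp1, the liver-type fatty acid binding protein that also carries fatty acids in enterocytes, was the most abundant of the called genes. It had 7949, 14642, 9623, 6155 and 5563 CPM in the DA libraries, against 16753, 25130, 24388, 21060 and 27843 CPM in the A libraries. Every DA library lay below every A library. That was so for 16 of the 4902 genes tested (0.326%), and 14 genes (0.286%) lay entirely above. The group means were 8786 ± 3640 CPM in DA and 23035 ± 4263 CPM in A (SD, n = 5 each), and edgeR's test gave a log2 fold change of -1.39 ± 0.29 (SE), that is 2.62-fold lower in DA, with a Benjamini-Hochberg adjusted p of 0.0245. Fewer cells of a type that expresses a gene and less RNA per cell cannot be told apart in such bulk libraries. Summed enterocyte markers other than Fabp1 and Fabp2 ran from 2605 to 3985 CPM in DA and from 3005 to 4822 CPM in A, and their part in the Fabp1 difference was not tested.

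Abhd6, a lipase that cleaves monoacylglycerols, had 62.5, 55.7, 39.3, 58.1 and 46.9 CPM in the DA libraries, against 80.1, 101, 111, 96.5 and 118 CPM in the A libraries. The groups did not overlap. Its log2 fold change was -0.97 ± 0.19, or 1.96-fold lower in DA, with an adjusted p of 0.0184 by edgeR's quasi-likelihood test. Eci2, an isomerase that lets unsaturated fatty acids enter β-oxidation, had 77.1, 78.5, 70.3, 56.1 and 84.0 CPM in DA, against 147, 95.2, 144, 145 and 120.2 CPM in A, again without overlap. It was 1.80-fold lower in DA, at a log2 fold change of -0.84 ± 0.17 and an adjusted p of 0.0184 in the same edgeR fit.

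Crot, the peroxisomal carnitine octanoyltransferase that hands shortened acyl chains on for export from the peroxisome, had 47.9, 43.0, 39.3, 31.1 and 37.1 CPM in DA, against 57.9, 75.8, 73.2, 64.3 and 111 CPM in A. The highest DA library was below the lowest A library, and the log2 fold change was -0.96 ± 0.21 with an adjusted p of 0.0450 by edgeR's test. Abhd6, Eci2, Fabp1 and Crot each kept a negative fold change in all 19 alternatives, but none kept its call in all of them. Without DA replicate 1, 3, 4 or 5 or A replicate 3 each of them missed the threshold. Abhd6, Fabp1 and Crot also missed it without A replicate 2 or 5, and Eci2 without A replicate 1. Over those leave-outs adjusted p by edgeR's test ran from 0.0578 to 0.0912 for Abhd6, from 0.0630 to 0.137 for Eci2, from 0.0635 to 0.175 for Fabp1 and from 0.0834 to 0.303 for Crot. Crot also missed it in DESeq2 (adjusted p = 0.0668), in edgeR without a filter (adjusted p = 0.0501) and in edgeR on the 2 groups alone (adjusted p = 0.170), and Eci2 missed it in that last edgeR fit (adjusted p = 0.0888). Within libraries 37 and above, with 2 libraries in each of the 2 groups, Fabp1 passed, with a log2 fold change of -2.06. Abhd6 (-1.02), Eci2 (-0.91) and Crot (-1.34) missed the threshold there. Within libraries up to 36 none of the 4 genes passed, with -1.06 for Fabp1, -0.94 for Abhd6, -0.80 for Eci2 and -0.71 for Crot.

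The processed pseudogene Gm9625, named after its values were seen because it also passed, had 0, 4, 1, 1 and 0 counts in the DA libraries, against 29, 14, 20, 33 and 14 counts in the A libraries. Its log2 fold change was -4.10 ± 0.81, with an adjusted p of 0.0184 by edgeR's test. It missed the threshold in DESeq2 (adjusted p = 0.219), and in edgeR without DA replicate 1, 3, 4 or 5 or A replicate 3 (adjusted p 0.0635 to 0.0951). Unlike the 4 genes above it also varied widely between vehicle libraries, where the 4 DA libraries had 1, 31, 0 and 0 counts and the 5 A libraries had 23, 14, 3, 47 and 35. In the WT and D libraries it had at most 3 counts.

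The promoters of 2 of the called genes are shown because PPAR-RXR pairs are known to bind a direct repeat, 2 copies of AGGTCA with 1 free base between them, which was searched on both strands of 32851 RefSeq promoters of 300 bases (GRCm38.p6, 250 bases before to 50 after the start). Capitals mark the best match in each, and both lines read 5′ to 3′ on the gene's strand.
Fabp1: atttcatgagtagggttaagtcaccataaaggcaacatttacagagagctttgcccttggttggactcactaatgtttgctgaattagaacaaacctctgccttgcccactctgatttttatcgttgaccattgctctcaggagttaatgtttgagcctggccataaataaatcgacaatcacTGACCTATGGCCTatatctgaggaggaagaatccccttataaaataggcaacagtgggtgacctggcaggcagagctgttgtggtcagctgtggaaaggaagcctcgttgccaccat
Abhd6: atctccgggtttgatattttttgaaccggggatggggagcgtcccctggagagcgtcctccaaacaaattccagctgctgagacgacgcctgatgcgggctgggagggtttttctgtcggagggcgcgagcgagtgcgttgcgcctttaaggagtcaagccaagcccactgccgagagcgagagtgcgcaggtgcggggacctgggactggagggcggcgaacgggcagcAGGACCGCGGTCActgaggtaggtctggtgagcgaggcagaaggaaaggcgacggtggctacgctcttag
The Fabp1 window is chr6:71199629-71199928 on the plus strand. Its match, TGACCTATGGCCT, lies on the opposite strand, begins 67 bases before the start and keeps 11 of the 12 fixed letters. A match with at most 1 mismatch was held by 0.554% of all promoters. Abhd6 had 2 overlapping RefSeq windows, and the one with the better match is printed. That window, chr14:8002716-8003015 on the plus strand, kept 9 of 12 letters in AGGACCGCGGTCA on the gene's own strand, and 24.6% of promoters held at least as good a match. The other, chr14:8002638-8002937, kept 8 of 12. Eci2 and Crot each kept 8 of 12 letters, as 79.8% of promoters did at least. These matches describe letters in a window and do not locate a bound site.

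**Figure D2:**
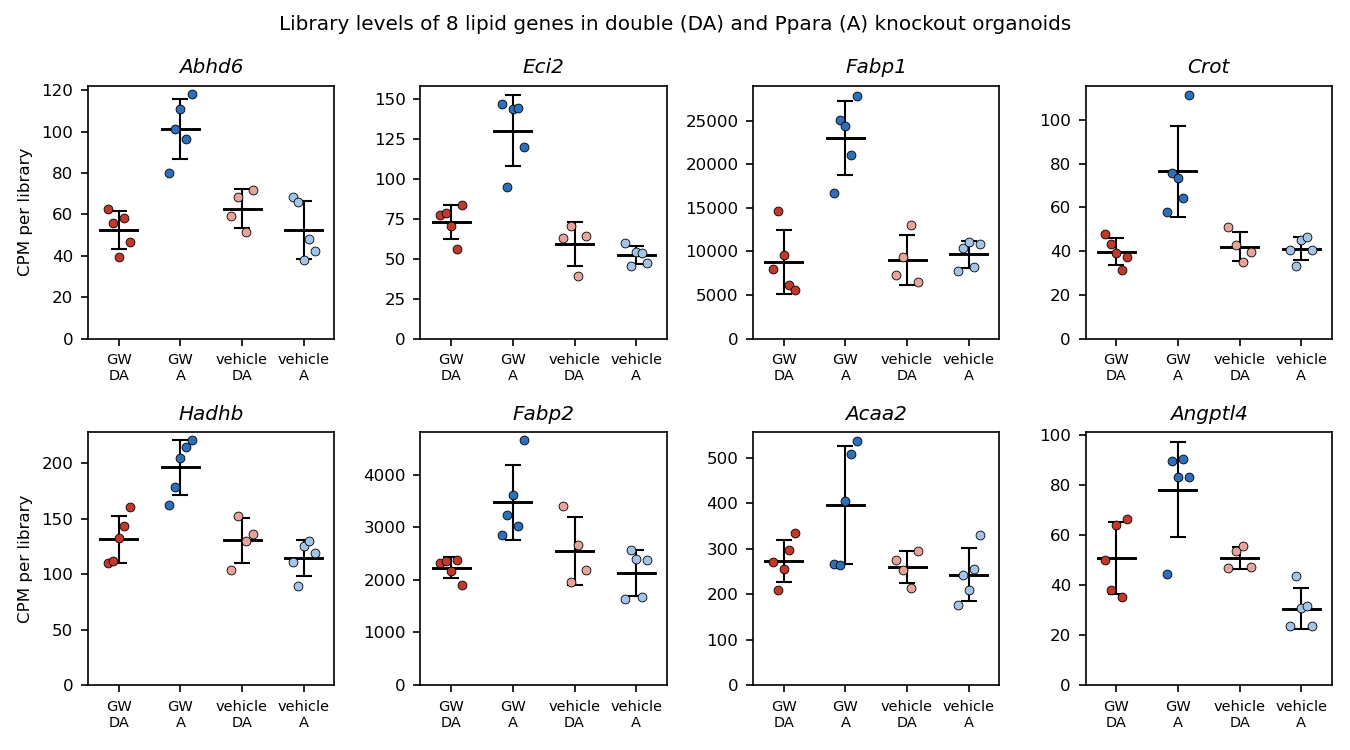
CPM by library (vertical axis of each panel, from 0) for named genes in DA and A organoids, under GW501516 and under vehicle, with 1 point per library, a bar at the group mean and whiskers of 1 SD. Abhd6, Eci2, Fabp1 and Crot under GW501516 lie lower in every DA library than in any A library.

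Hadhb had the smallest p among the genes that did not pass. It encodes the β subunit of the trifunctional protein that carries out the later steps of long-chain β-oxidation, and it had 110.5, 111, 132, 143 and 160.1 CPM in DA, against 162, 179, 204, 215 and 221 CPM in A. The groups did not overlap, yet the log2 fold change of -0.59 ± 0.13 missed the threshold at an adjusted p of 0.0528 by edgeR's quasi-likelihood test. Hadhb passed in edgeR once the library number run was a term of the model (adjusted p = 0.0198), and it passed in DESeq2 (adjusted p = 0.0458). Leaving out 1 library at a time gave adjusted p by edgeR's test from 0.0370, without A replicate 1, where Hadhb passed, up to 0.288, without DA replicate 1. Other mitochondrial oxidation genes had larger p. Its partner Hadha, the α subunit, averaged 162 ± 37 CPM in DA and 220.0 ± 30.3 CPM in A (log2 fold change -0.46 ± 0.18). Acaa2, the thiolase of the last step, averaged 273 ± 46.3 CPM in DA and 396 ± 129 CPM in A (-0.55 ± 0.16). Cpt1a, which commits long-chain fatty acids to mitochondrial import, was at 25.7 ± 8.51 CPM in DA and 33.3 ± 7.80 CPM in A, and its log2 fold change of -0.39 had an interval of -0.95 to 0.16. Acadvl, the very long-chain acyl-CoA dehydrogenase, stood at 47.0 ± 15.1 CPM in DA and 58.6 ± 11.8 CPM in A with an interval of -0.78 to 0.10.

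Among the 21 members of the mitochondrial fatty acid oxidation list, 19 were tested, 17 had a lower estimate in DA and 1 passed, Eci2. The list's median log2 fold change was -0.21, beside 0.00 over all genes, and 5 members had an unadjusted p under 0.05, all of them lower. Over all 4902 genes tested, 2416 had a lower estimate and 0.122% passed as lower. By the same edgeR test 2.37% were lower at an unadjusted p under 0.05. Those all-gene values also stand beside the list counts below. The peroxisomal list had 15 of 24 members tested, of which 14 had a lower estimate and 1 passed, Crot, at a list median of -0.32. Ehhadh, the peroxisomal bifunctional enzyme, averaged 17.8 ± 6.72 CPM in DA and 28.6 ± 10.6 CPM in A (log2 fold change -0.73 ± 0.33). Pxmp4, a peroxisomal membrane protein, averaged 21.7 ± 6.60 CPM in DA and 40.2 ± 14.6 CPM in A (-0.91 ± 0.31). Neither passed.

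Other PPAR target genes leaned the same way without passing, apart from Abhd6. Of 18 members on that list 12 were tested, 11 had a lower estimate in DA, 7 of them at an unadjusted p under 0.05, and 1 passed. The median log2 fold change of the list was -0.63. Of all genes tested, 2.37% were lower at that unadjusted p. Angptl4, a secreted inhibitor of lipoprotein lipase and a standard readout of PPAR agonists, had 50.0, 38.0, 64.1, 35.3 and 66.4 CPM in DA, against 44.5, 89.4, 83.3, 90.4 and 83.0 CPM in A. The groups overlapped through A replicate 1, and the log2 fold change was -0.63 ± 0.22. Plin2, which coats lipid droplets, averaged 43.9 ± 13.5 CPM in DA and 71.0 ± 26.0 CPM in A (-0.71 ± 0.27). Hilpda, a lipid droplet protein that restrains the lipase ATGL, averaged 15.3 ± 3.29 CPM in DA and 28.2 ± 8.89 CPM in A (-0.89 ± 0.32).

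Acot1, a cytosolic enzyme that splits acyl-CoA into free fatty acid and coenzyme A, had 22.9, 25.3, 10.3, 16.6 and 25.4 CPM in DA, against 37.8, 40.8, 27.8, 36.2 and 52.4 CPM in A. The groups did not overlap, but the adjusted p by edgeR's test was 0.748 at a log2 fold change of -0.98 ± 0.32. Akr1b8, an aldo-keto reductase, averaged 288 ± 80.5 CPM in DA and 399 ± 49.8 CPM in A (-0.49 ± 0.17). Pdk4, the kinase that turns pyruvate dehydrogenase off, had 0 counts over the DA group and 8 over the A group (4, 0, 2, 1 and 1 by library). With DA set at its floor of 3 counts and the A total taken as it stands, this is 2.71-fold lower. Pdk4 had too few counts to test. Acot1, Eci2 and Ifitm3 have close paralogs and Rplp0 has pseudogenes, and how reads shared between such copies were assigned is not given in the sources used here.

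Genes outside lipid metabolism were also among those of smallest p on the lower side, and the 4 that follow did not pass. Lockd, a long noncoding RNA, averaged 7.26 ± 3.15 CPM in DA and 18.6 ± 6.94 CPM in A (-1.37 ± 0.37). Exosc8, a subunit of the RNA exosome, averaged 98.0 ± 10.6 CPM in DA and 133 ± 13.5 CPM in A (-0.46 ± 0.13), without overlap between the groups. Fbp2, a fructose bisphosphatase of gluconeogenesis, averaged 420.2 ± 52.4 CPM in DA and 539 ± 111 CPM in A (-0.38 ± 0.12), and Pnkd averaged 43.6 ± 10.9 CPM in DA and 65.3 ± 9.47 CPM in A (-0.61 ± 0.20).

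Most enterocyte and lipoprotein genes gave lower estimates too. Fabp2, the intestinal fatty acid binding protein, had 2330, 2359, 2161, 2382 and 1910 CPM in DA, against 2856, 3233, 3607, 3025 and 4654 CPM in A. No DA library reached the lowest A library, and the log2 fold change was -0.66 ± 0.19 with an adjusted p of 0.479 by edgeR's test. Apoa4, an apolipoprotein of chylomicrons, averaged 104 ± 38.9 CPM in DA and 201 ± 55.9 CPM in A (-0.97 ± 0.29). Apoc2, the cofactor of lipoprotein lipase, averaged 279 ± 51.2 CPM in DA and 473 ± 167 CPM in A (-0.77 ± 0.23), and Mttp, which loads lipid onto apolipoprotein B, averaged 227 ± 29.8 CPM in DA and 295 ± 90.8 CPM in A (-0.39 ± 0.20). On the list of lipid droplet and chylomicron genes 9 of 13 members were tested, 7 had a lower estimate, none passed, and the median was -0.39. On the enterocyte list 19 of 22 were tested, 15 had a lower estimate, 1 passed (Fabp1) and the median was -0.20. The 4 higher estimates were those of Anpep (0.21), Alpi (0.17), Slc5a1 (0.05) and Krt20 (0.04). Sis (-0.16), Apoa1 (-0.16) and Vil1 (-0.01) were lower by less than the genes named above.

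In the list of fatty acid uptake and binding 7 of 12 members were tested, with 5 lower estimates, 1 that passed (Fabp1) and a median of -0.24. Acsl3, an acyl-CoA synthetase of lipid droplets, averaged 32.2 ± 13.7 CPM in DA and 50.0 ± 13.6 CPM in A (-0.66 ± 0.30). Fatty acid synthesis genes had 3 higher and 4 lower estimates among 7 tested, and their median was -0.02. Cholesterol synthesis genes, controlled by SREBP2, had 11 higher and 8 lower estimates among 19 tested and a median of 0.01. No member of these synthesis lists had an unadjusted p under 0.05.

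**Figure D3:**
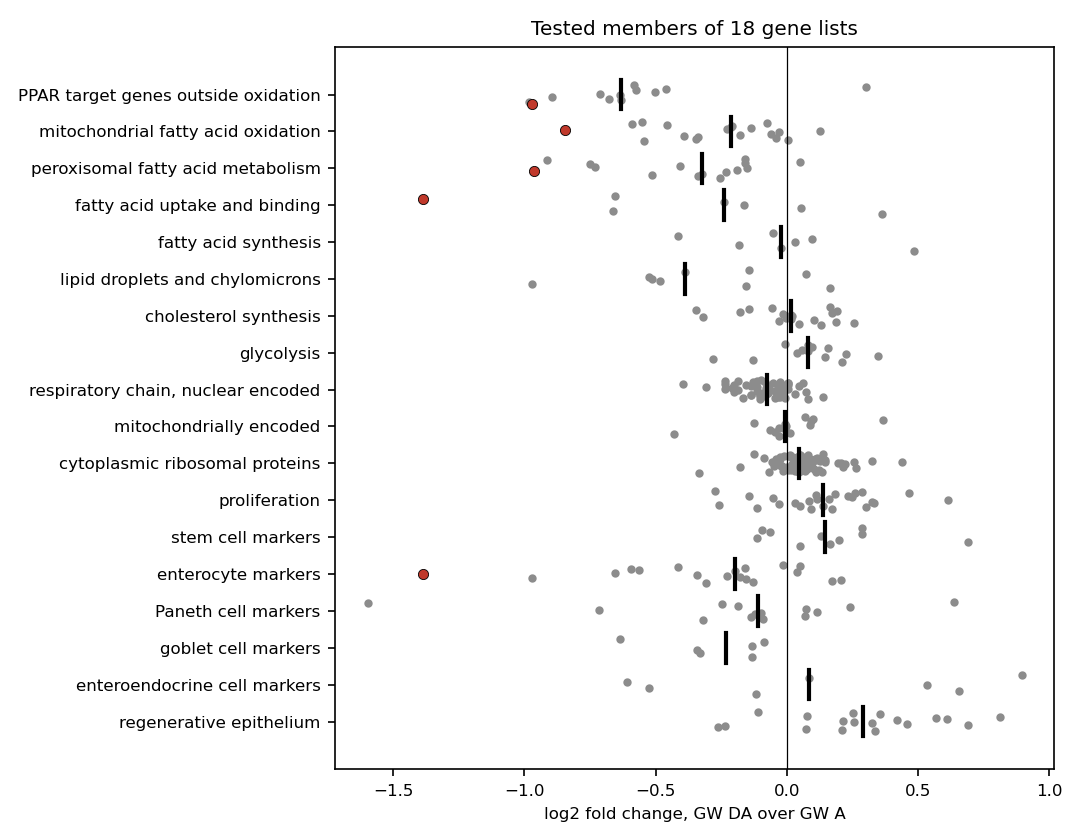
Log2 fold change of each tested member, DA over A under GW501516 (horizontal axis), for 18 gene lists (vertical axis), with 1 point per gene, a bar at each list's median and red for genes with an adjusted p under 0.05. The medians of PPAR target genes (-0.63), lipid droplet and chylomicron genes (-0.39) and peroxisomal genes (-0.32) lie lowest among the lipid lists.

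Many of the lipid genes above shared the same lowest A library. Among the 16 lipid genes Abhd6, Eci2, Fabp1, Crot, Hadhb, Acaa2, Hadha, Fabp2, Apoa4, Apoc2, Acot1, Angptl4, Plin2, Pxmp4, Hilpda and Akr1b8, A replicate 1 was the lowest A library for 11. That library and DA replicate 1 carry a suffix 2 in their column names, as do vehicle DA replicate 1 and GW501516-treated WT replicate 1. Without all of these columns, Abhd6 had a log2 fold change of -1.09, Fabp1 -1.42 and Crot -1.10, each further from 0 than with them. Eci2 had -0.79, Gm9625 -3.63 and Hadhb -0.57, each nearer to 0. None of these genes passed there. Adjusted p by edgeR's test was 0.0632 for Abhd6, 0.0902 for Crot and 0.159 for Eci2. It was 0.137 for Fabp1, Gm9625 and Hadhb, and 1 gene of the table passed. What the suffix marks is not given in the labels, and its part was not tested.

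No gene was called higher, and those with the lowest p in that direction were of mixed function. Ifitm3, an interferon-induced membrane protein that blocks virus entry, had 70.9, 70.9, 68.2, 68.5 and 115 CPM in DA, against 51.2, 58.3, 37.9, 38.2 and 32.8 CPM in A. All DA libraries were above all A libraries, and the log2 fold change was 0.82 ± 0.20 with an adjusted p of 0.177 by edgeR's test. Rplp0, a stalk protein of the large ribosomal subunit, averaged 4532 ± 945 CPM in DA and 3288 ± 383 CPM in A, at 0.44 ± 0.11 and an adjusted p of 0.178 in the same edgeR test. Rplp0 passed in 4 of 19 alternatives, namely DESeq2, the block for library number runs, libraries 37 and above, and without DA replicate 2 (lowest adjusted p by edgeR 0.0118), and Ifitm3 passed within libraries 37 and above alone (adjusted p by edgeR 0.0396). Prkab1, a regulatory subunit of AMP-activated kinase, averaged 18.1 ± 4.13 CPM in DA and 5.83 ± 4.05 CPM in A, and Chgb, a granule protein of enteroendocrine cells, averaged 48.3 ± 5.98 CPM in DA and 29.9 ± 5.58 CPM in A. Both were higher in each DA library than in any A library. Prkab1 rested on 6 to 10 counts per DA library and 1 to 6 per A library. Chgb was at 39.3 CPM in its lowest DA library and 38.2 CPM in its highest A library, and neither gene passed. The enteroendocrine list as a whole had 4 higher and 3 lower estimates among 7 tested of 19 members, at a median of 0.09, and its member Reg4 had -0.61 ± 0.28. The other genes of smallest p on this side, Nudcd3, Haus2, Ppp2r5c, Zc3h13, Fkbp1a, Mettl16, Ncl, Pebp1, Cenpe, Acy1, Ick and Suox, had log2 fold changes from 0.43 (Ncl) to 1.12 (Suox), and none passed. Across all genes, 14 (0.286%) lay entirely above and 16 (0.326%) entirely below, so complete separation was about as frequent in either direction.

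Growth, respiration and secretory lineage lists had medians between -0.23 and 0.29, and no member passed. Of 77 cytoplasmic ribosomal protein genes 59 had a higher estimate, at a median of 0.05 and with none called. Of 25 tested proliferation genes 19 were above 0 (median 0.14), including Top2a, the topoisomerase of dividing cells, at 151 ± 36.5 CPM in DA and 107 ± 24.3 CPM in A. Of 18 tested regenerative epithelium genes 15 were above 0 (median 0.29), with Ly6e at 153 ± 28.4 CPM in DA and 98.6 ± 33.0 CPM in A. In the nuclear-encoded respiratory chain 51 of 61 genes had a lower estimate, but the median was -0.08, and mitochondrially encoded genes had a median of -0.01. Goblet cell genes had 6 of 6 lower estimates at a median of -0.23, with the lectin Zg16 at 312 ± 86.8 CPM in DA and 477 ± 187 CPM in A. Zg16 had the lowest estimate of that list (-0.64), and the others ran from -0.34 for Fcgbp to -0.09 for Tff3. Paneth cell genes had 9 of 14 lower estimates at a median of -0.11, and 2 of them, Defa29 and Mptx1, changed sign within libraries 37 and above (0.039 and 2.11).

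Whether the genotype step also existed without agonist was asked in other libraries, the vehicle-treated DA and A organoids. There edgeR's test called 0 of 4902 genes, with 160 at an unadjusted p under 0.05; DESeq2 called 1 and limma-trend 0. Abhd6 averaged 62.7 ± 9.32 CPM in vehicle DA and 52.5 ± 14.0 CPM in vehicle A, and Eci2 averaged 59.2 ± 13.8 CPM in vehicle DA and 52.2 ± 5.74 CPM in vehicle A. Fabp1 averaged 9017 ± 2902 CPM in vehicle DA and 9675 ± 1557 CPM in vehicle A, and Crot 42.0 ± 6.66 CPM in vehicle DA and 41.0 ± 5.16 CPM in vehicle A. The 4 log2 fold changes under vehicle were 0.26 ± 0.21 for Abhd6, 0.19 ± 0.20 for Eci2, -0.09 ± 0.30 for Fabp1 and 0.05 ± 0.24 for Crot. Acot1 and Angptl4 had the opposite sign under vehicle, at 30.2 ± 13.3 CPM in DA and 12.0 ± 5.10 CPM in A for Acot1 (1.31 ± 0.37) and 50.8 ± 4.46 CPM in vehicle DA and 30.6 ± 8.09 CPM in vehicle A for Angptl4 (0.74 ± 0.26). The list of other PPAR targets had a median of 0.29 under vehicle, the mitochondrial list 0.07 and the peroxisomal list -0.05.

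The difference between the 2 steps, tested as an interaction, passed for 0 genes by edgeR's quasi-likelihood test, with 149 at an unadjusted p under 0.05; DESeq2 called 0 and limma-trend 1. The lowest adjusted p, 0.151, belonged to Acot1, whose step under GW501516 was lower than that under vehicle by a log2 difference of -2.29 ± 0.48. Abhd6 followed with -1.23 ± 0.29 and an adjusted p of 0.288 in edgeR's test. Eci2 stood at -1.04 ± 0.26, Angptl4 at -1.37 ± 0.34 and Hadhb at -0.79 ± 0.20, each with an adjusted p of 0.304 in edgeR's test. Fabp1, at -1.30 ± 0.41, was further from passing. A larger step under agonist than under vehicle was thus not established for any of these genes.

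**Figure D4:**
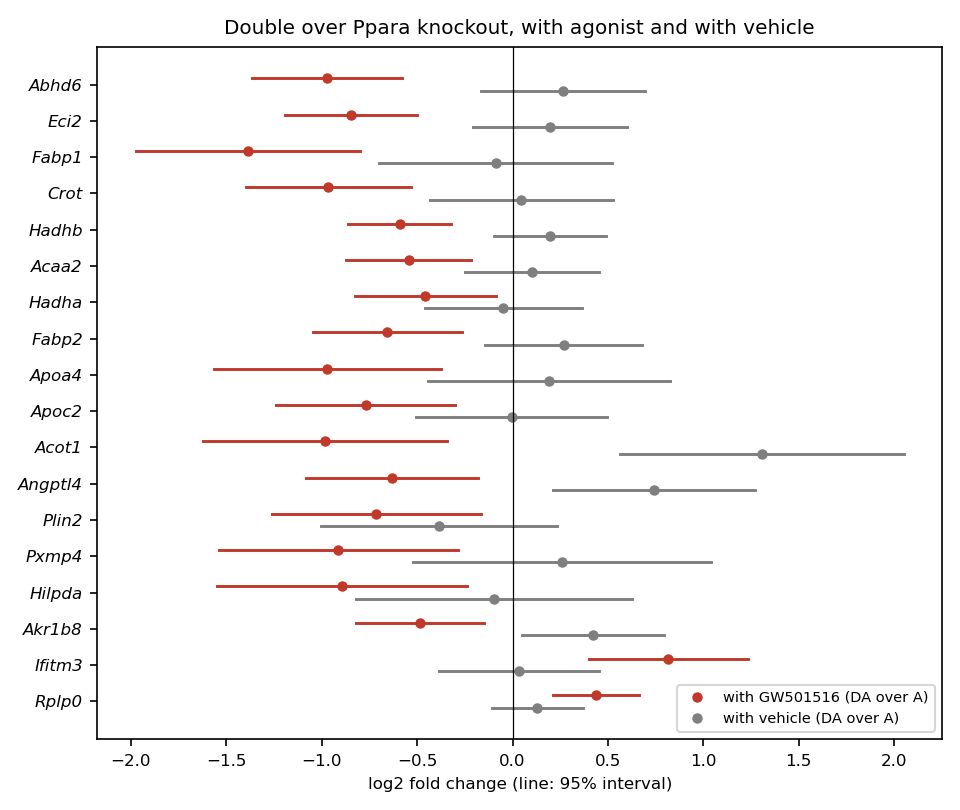
Log2 fold change of DA over A with its 95% interval (horizontal axis) for named genes (vertical axis), under GW501516 and under vehicle. The intervals of Abhd6, Eci2, Fabp1 and Crot lie below 0 under GW501516 and span 0 under vehicle.

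The agonist's own effect in each genotype is set beside these values, with the caution that the groups are shared with the comparison above. Against vehicle, GW501516 raised 14 genes (0.286%) and lowered 1 (0.0204%) in A and changed 0 in DA by edgeR's test, where 157 genes had an unadjusted p under 0.05 in DA. Abhd6 had a log2 fold change with agonist of -0.26 ± 0.21 in DA and 0.98 ± 0.19 in A. Eci2 had 0.31 ± 0.19 in DA and 1.35 ± 0.18 in A. Fabp1 had -0.02 ± 0.30 in DA and 1.28 ± 0.29 in A, and Crot had -0.08 ± 0.24 in DA and 0.93 ± 0.21 in A. In A all 4 passed, as did Hadhb, Acaa2, Acot1, Angptl4, Akr1b8 and Pxmp4, and in DA none of these passed. The difference between the DA and A agonist effects is the interaction given above, which passed for 0 genes by edgeR's test. A weaker agonist effect in DA than in A was thus not established for any gene by that test.

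With Ppara intact, GW501516-treated Ppard-floxed (D) organoids averaged 91.6 ± 17.8 CPM of Abhd6 (n = 3) and WT organoids 128 ± 17.3 CPM (n = 5). Eci2 stood at 121 ± 5.39 CPM in D and 158 ± 28.3 CPM in WT, Crot at 73.3 ± 12.5 CPM in D and 102 ± 33.3 CPM in WT, and Fabp1 at 35102 ± 12355 CPM in D and 38433 ± 14240 CPM in WT. The Ppard step under agonist differed between Ppara-null and Ppara-intact organoids by -1.31 ± 0.43 on the log2 scale for Fabp1, -0.56 ± 0.29 for Abhd6, -0.50 ± 0.25 for Eci2 and -0.54 ± 0.31 for Crot. None of 4902 genes passed in that test by edgeR, with 165 at an unadjusted p under 0.05; DESeq2 called 0 and limma-trend 1. The count table held 4 columns for the 3 labelled D samples under agonist, and the column with a suffix 2 was left out.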

How the data were processed

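The deposited table held 57 columns of whole-number counts of 3′ tags for 54352 genes, and 37 columns were used; the other 20, of which 19 had KD in their name, were not. Per the submitters' processing notes, the authors used Salmon 1.1.0, R 3.6.2 and edgeR 3.26.8 with build mm10; the annotation release, use of molecular identifiers and filters are not given in the sources used here. Column names gave each library's treatment and genotype and so its place among the 8 groups, with replicates numbered in column order. The sample labelled with the genotype of both genes under a GW501516 D title was put in no group. Symbols and positions came from GENCODE M21 (54109 genes matched) and promoters from RefSeq.

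Genes passing filterByExpr (4902) were fitted with edgeR 4.0.16 (R 4.3.3) by glmQLFit and glmQLFTest, with TMM scaling, all 8 groups in 1 model and Benjamini-Hochberg adjustment, and called at 0.05. CPM was the count over the library total. Errors of fold changes are standard errors and other errors are SDs. Alternatives used DESeq2 1.42.0, limma 3.58.1 (limma-trend, prior count 2), other scaling, filters, runs of library numbers and each replicate left out, and the script was tested on simulated data. All 20 pairs of libraries within the 2 groups differed by more than sampling noise (chi-square per degree of freedom 1.996 to 5.702), so none was counted as a copy. The spread behind every p-value is that between libraries only and may be technical, and floors cover counting error only.

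Genes named are the receptors, called genes whose mean log2 CPM reached 4 (leaving out predicted genes), those of smallest p up to 15 in each direction, a fixed set of lipid and stem cell genes and up to 4 members per list. The comparison, the genes and the 28 gene lists were chosen with earlier results of these data known. In all, 1 called gene and 1 further list are not reported here; the gene is counted in the totals.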

Additional observations from a re-analysis of the deposited data

Results flagged for a closer look

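In groups of 5 libraries, the highest or lowest value of 22 named genes, picked after their values were seen, was set against the gap that Dixon's 95% criterion allows. Over the 44 groups examined 4 stood apart, and chance gives about 1 in 20. Angptl4 in A replicate 1 was at 44.5 CPM, while the other 4 A libraries lay between 83.0 and 90.4 CPM. Plin2 in A replicate 3 was at 116.1 CPM, with the others at 49.0 to 64.1 CPM. Pxmp4 in DA replicate 3 was at 10.3 CPM, with the others at 22.8 to 27.3 CPM. Ifitm3 in DA replicate 5 was at 115.2 CPM, with the others at 68.2 to 70.9 CPM.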

How the results depend on the processing

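The 6 calls of DA against A under GW501516 became 23 without a filter (20 lower, 3 higher), 35 within libraries 37 and above (19 lower, 16 higher), 1 within libraries up to 36, 1 without the columns with a suffix 2, and 1 to 8 with each replicate left out (1 to 7 lower, 0 to 1 higher). DESeq2 and the block for runs of library numbers each called 1 gene higher. The vehicle comparison went from 0 calls to 1 with DESeq2, 20 without a filter and 0 to 2 over its leave-outs. The difference between the steps with and without agonist had 8 calls without a filter and 1 with limma-trend, and that between Ppara-null and Ppara-intact organoids had 10 and 1, and both stayed at 0 in every leave-out run. The runs of library numbers also differed in Xist and Y-linked transcripts, as given above, and the cause of these shifts was not tested. Abhd6, Eci2, Fabp1, Crot and Gm9625 kept their sign in all 19 alternatives. Signs turned within libraries 37 and above for Defa29 (0.039), Mptx1 (2.11), Reg4 (0.11) and Ppara (-0.35), and within libraries up to 36 for Pparg (-0.054). Over the leave-outs Ppara ran from -0.12 to 0.40, below 0 without DA replicate 4 (-0.10) or A replicate 3 (-0.12), and Pparg from -0.019 to 0.31, below 0 without DA replicate 1 or A replicate 5 (-0.019). Totals of at most 514691 counts leave genes such as Ppard and Lgr5 at a few counts, where no difference was detectable at this depth. No paired analysis was possible because the columns carry no replicate numbers, and the labels do not tie the library numbers to pairs; the block for runs of library numbers is not a pairing.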
